A study of Mus musculus with 4 samples.

Results

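The genes described here are the mouse heterotrimeric G protein subunits, the regulators of G protein signalling (RGS), the adenylyl cyclases and the phosphodiesterases, chosen by their symbols in the deposited expression table. The symbol rule matched 88 of 48431 entries and gave 87 genes, since Pde2a is listed with 2 entries, of which the one with the higher mean was used. They are 16 G alpha, 5 G beta, 12 G gamma, 21 RGS, 10 adenylyl cyclase and 23 phosphodiesterase genes. RNA came from dorsal root ganglia (DRG), which house the cell bodies of the sensory neurons along the spine. The mice were male wild-type animals with the strain label SW. All had been given methylglyoxal (MGO), a reactive dicarbonyl formed as a by-product of glycolysis, intraperitoneally at 2 mg/kg during 6 days. The 4 libraries, replicates 1 to 4, form this 1 group, and their ages and the number of animals behind each are not stated in the labels. No vehicle group was analysed here, so no value below is a response to MGO. Nothing in the labels tells separate animals from repeated libraries of 1 animal or pool. The p-values therefore describe the scatter of these 4 libraries, and it may be technical.

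G proteins carry the signal of cell-surface receptors into the cell. An activated receptor makes the alpha subunit exchange GDP for GTP, the alpha subunit and the beta-gamma dimer then act on their targets, and RGS proteins speed up GTP hydrolysis and so end the signal. Gs alpha subunits stimulate adenylyl cyclase, which makes cAMP, Gi/o subunits inhibit it, Gq/11 subunits activate phospholipase C beta, and G12/13 subunits act on guanine nucleotide exchange factors of small GTPases. Phosphodiesterases degrade cAMP, cGMP or both. In sensory neurons, cAMP signalling is known for sensitising nociceptors, and Gi/o-coupled receptors, among them the opioid receptors, for dampening their activity.

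Values are CPM, reads of a gene scaled to a total of 1000000 for each library, with no scaling by gene length. The library kit reads 3′ ends, so reads need not grow with transcript length. Levels of different genes are therefore compared in CPM, and the order per kb of exonic length is given where it differs. The most common value above 0 in each library, taken as 1 read, implies 10138766, 8975726, 5576834 and 7223765 reads in replicates 1 to 4. On this scale 3 reads, the limit that a count of 0 allows, equal 0.296, 0.334, 0.538 and 0.415 CPM. This floor covers counting error only. The libraries stand apart as 2 pairs, replicates 1 and 2 against replicates 3 and 4, and the labels give no origin for the split. All 10 pan-neuronal markers (such as Uchl1) were at 1 CPM or more in all 4 libraries, and they summed to 13645 and 12510.4 CPM on average in replicates 1 and 2 and in replicates 3 and 4. In the same order, myelinating Schwann cell markers (8 of 8 detected) summed to 28702 and 16216 CPM, satellite glia markers (6 of 6) to 1242 and 595 CPM, fibroblast markers (6 of 6) to 1850.3 and 1418 CPM, and endothelial and mural markers (6 of 6) to 160.2 and 139 CPM. Macrophage markers (4 of 7 at 1 CPM or more in all 4 libraries) summed to 261 and 165 CPM, blood markers (5 of 5) to 1013 and 516 CPM and skeletal muscle markers (5 of 5) to 855 and 455 CPM. In such bulk RNA, fewer cells of a type and less RNA per cell cannot be told apart, and the part of these cell types in the values below was not tested.

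Of the 87 genes, 60 (69.0%) were detected, at 1 CPM or more in all 4 libraries, against 26.5% of all entries and 54.4% of protein-coding entries. The rod and taste transducins Gnat1 and Gnat3, Rgs13, the soluble adenylyl cyclase Adcy10 and the cone phosphodiesterase Pde6c, 5 genes in all, were listed at 0 in every library, as were 51.5% of all entries and 23.7% of protein-coding ones. Together the 87 genes made up 0.465%, 0.456%, 0.464% and 0.435% of replicates 1 to 4, a mean of 0.455% ± 0.0138 (SD, n = 4). The G alpha genes summed to 1634 ± 174 CPM (SD, n = 4), the G beta genes to 899.7 ± 94.3 CPM, the G gamma genes to 757 ± 55.4 CPM, the RGS genes to 732 ± 37.2 CPM, the phosphodiesterases to 360.2 ± 30.2 CPM and the adenylyl cyclases to 167 ± 60.01 CPM. The cyclase sum was 115 and 218 CPM on average in replicates 1 and 2 and in replicates 3 and 4, the widest ratio between the library pairs among the 6 families.

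A test of each gene's log2(CPM + 1) against the median gene of the same library, over the 14817 entries with a mean of at least 1 CPM, was read for the 68 genes described here that reached this mean. With limma and a Benjamini-Hochberg adjusted p under 0.05 over the whole table, 32 of them (47.1%) were called higher, against 39.7% of all entries tested. Another 24 (35.3%) were called lower, also against 39.7% of all entries, and 12 were not called. The median difference of the 68 genes was 0.36 (log2), against -0.02 over all entries tested. The G alpha genes were the family with no lower call, with 11 higher and 1 not called. Only 12 of the 16 G alpha genes averaged 1 CPM or more, and those below this mean could not be called. The G beta genes had 3 higher and 1 lower call, the G gamma genes 4 and 2, the RGS genes 7 and 8, the adenylyl cyclases 3 and 4 and the phosphodiesterases 4 and 9. Of the 32 higher calls, 30 were made in each library pair alone, and of the 24 lower calls 17. Of all entries, 44.8% were called higher and 45.0% lower in replicates 1 and 2 alone. In replicates 3 and 4 alone the shares were 42.9% and 43.0%. Adcy7, Gng8, Rgs18 and Rgs19 averaged under 1 CPM in replicates 3 and 4, and Rgs9 and Pde9a in replicates 1 and 2. Their lower calls could therefore not be repeated there. Pde7b was tested in both pairs and not called in replicates 3 and 4 (adjusted p = 0.105, limma). Per kb of exonic length, 24 of the 32 higher and all 24 lower calls were made again. In that setting 38.2% of all entries were called higher and 37.7% lower.

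Among the G alpha genes the Gi/o class held 77.996 ± 1.604% of the CPM (SD over libraries, n = 4), the Gq/11 class 13.5 ± 1.75%, the Gs class 6.104 ± 0.446% and the G12/13 class 2.35 ± 0.507%. Per kb these shares were 73.8%, 18.7%, 3.78% and 3.72%. All of them take Gnas as listed, without Gm20721, an opposite-strand entry over its exons that is described below. Gm20721 had 669.9, 625, 71.2 and 66.3 CPM in replicates 1 to 4. Counted with Gnas, it would raise the Gs share and lower the others, most in replicates 1 and 2. Gnao1 alone, the Go subunit that is abundant in neurons (chromosome 8, 93809966 to 93969388, plus strand, GRCm38), made up 59.7% of the family with Gnas as listed. It had 1010.4, 1054, 951 and 887 CPM in replicates 1 to 4, a mean of 976 ± 72.3 (SD, n = 4), which lay above 99.3% of the entries averaging 1 CPM or more. The replicates 3 and 4 values were the lower ones, and the lowest and highest library differed by 1.19-fold. Against the median gene Gnao1 was higher by 6.08 ± 0.15 (log2, SE) at an adjusted p of 9.53e-06 (limma), in 4 of 4 libraries.

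Gnai2 and Gnai3 encode widely expressed Gi subunits that inhibit adenylyl cyclase. Gnai2 had 129, 126, 71.4 and 62.3 CPM in replicates 1 to 4, and Gnai3 had 90.8, 81.2, 66.3 and 68.4 CPM. Both were higher in replicates 1 and 2, with no overlap between the library pairs, and Gnai2 was above Gnai3 in 3 of 4 libraries. Gnaz, the Gi-class subunit that pertussis toxin does not modify, had 81.6, 78.8, 43.04 and 39.2 CPM and stood 1.95-fold higher in replicates 1 and 2 than in 3 and 4. Gnai1 averaged 62.6 ± 21.5 CPM and lay the other way, with 45.1 and 80.1 CPM on average in replicates 1 and 2 and in replicates 3 and 4. The transducins Gnat1, Gnat2 and Gnat3 ended this class, with Gnat2 listed at 0 in 3 libraries and at 0.223 CPM, 2 reads, in replicate 2.

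In the Gq/11 class, Gnaq, the widely expressed activator of phospholipase C beta, had 198, 164, 115 and 106 CPM in replicates 1 to 4 and lay above every other member of the class in every library. Per kb of exonic length Gnai2, at 25.7 CPM, came before Gnaq, at 23.6 CPM. Gna14 had 52.9, 45.6, 34.4 and 27.3 CPM and Gna11 30.97, 38.5, 44.6 and 35.4 CPM. Gnaq and Gna14 were higher in replicates 1 and 2, whereas the pairs overlapped for Gna11, and the order of Gna14 and Gna11 split 2 libraries against 2. Gna15, known for its expression in blood cells, had 0.0986, 1.11, 0 and 0.554 CPM, at or near the floor apart from replicate 2. The G12/13 genes varied little and were slightly higher in replicates 3 and 4, where Gna12 and Gna13 did not overlap with replicates 1 and 2. Gna12 had 18.8, 18.2, 22.2 and 20.8 CPM and Gna13 16.1, 15.5, 18.3 and 21.3 CPM. Against the median gene Gna12 was higher by 0.54 ± 0.18 (log2, SE) at an adjusted p of 0.0303 (limma) in 4 of 4 libraries, and that call was lost when any 1 library was left out, with adjusted p between 0.0534 and 0.115. Gna13 differed from the median gene by 0.37 ± 0.19 (log2, SE) at an adjusted p of 0.122 (limma) and was not called.

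The 2 Gs-class genes encode the ubiquitous Gs subunit (Gnas) and Golf (Gnal), both stimulators of adenylyl cyclase. Gnal had 78.1, 62.7, 63.5 and 66.2 CPM in replicates 1 to 4, with overlapping library pairs. It shares its locus with Chmp1b on the same strand (mean 17.8 CPM), so a part of its reads is uncertain. Gnas had 42.5, 37.5, 26.2 and 22.8 CPM, higher in replicates 1 and 2. The Gnas value cannot be read alone. Gm20721, an entry of 1484 exonic bases on the opposite strand (chromosome 2, 174330319 to 174346712, GRCm38), shares 99.0% of its exonic bases with exons of Gnas (174284320 to 174346744, plus strand) and had 669.9, 625, 71.2 and 66.3 CPM in replicates 1 to 4. It was 9.42-fold higher in replicates 1 and 2 than in 3 and 4. The kit is known to keep strand, but whether strand was used in counting is not given in the sources used here, so reads of the 2 entries cannot be told apart. Per kb of exonic length Gnal averaged 6.05 CPM and Gnas 2.88 CPM, which puts Gnas below Gna12, at 5.85 CPM. Gnas and Gm20721 together came to 712, 663, 97.4 and 89.1 CPM.

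**Figure D1:**
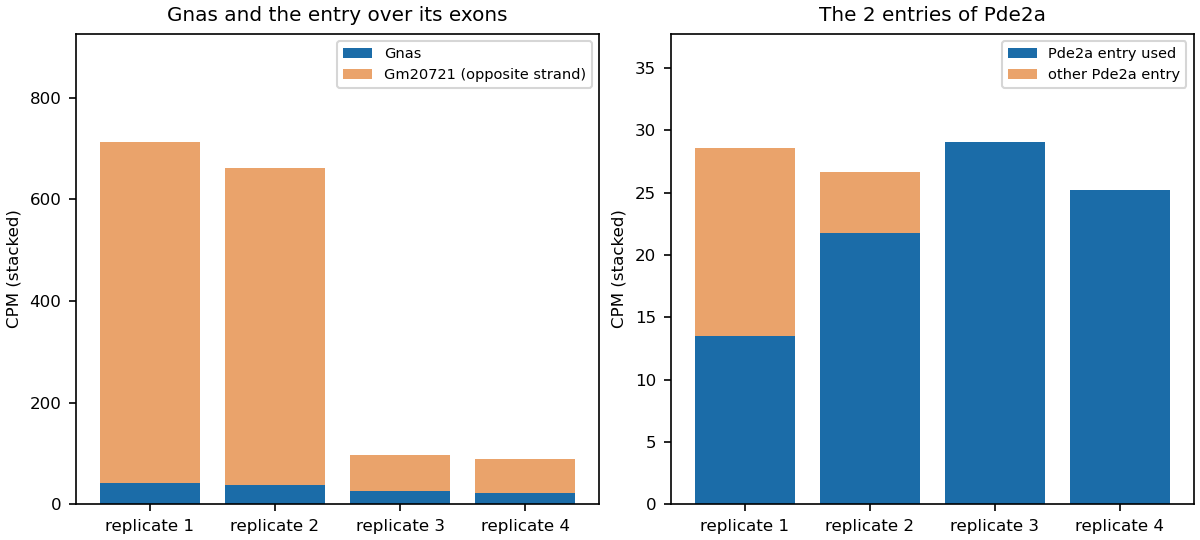
Stacked CPM in replicates 1 to 4 for Gnas and the opposite-strand entry Gm20721 (left) and for the 2 entries listed as Pde2a (right). Gm20721 takes most of the stack in every library and is lower in replicates 3 and 4, whereas the 2 Pde2a entries together stay between 25.2 and 29.0 CPM.

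With Gnas as listed, 7 of the 11 other G alpha genes tested were called higher than Gnas, against 21.8% of all entries, and 1 was called lower, against 57.7%. Gnao1 was higher than Gnas by 4.92 ± 0.21 (log2, SE) at an adjusted p of 2.86e-05 (limma), in 4 of 4 libraries, and at an adjusted p of 0.00183 with each gene's own, ordinary variance. Gnaq was higher by 2.14 ± 0.18 (log2, SE) at an adjusted p of 6.58e-05 (limma), Gnai2 by 1.53 ± 0.19 (log2, SE) at an adjusted p of 0.000309 (limma) and Gnal by 1.08 ± 0.22 (log2, SE) at an adjusted p of 0.00325 (limma), each in 4 of 4 libraries. Their adjusted p with ordinary variance were 0.00114, 0.00249 and 0.0162. The scatter of the comparison gene enters every difference in such a fit, and the moderated and the ordinary adjusted p are therefore both given. With ordinary variance there were again 7 higher calls, against 18.7% of all entries, and no lower one, against 52.5%. Gna14 was among the higher ones (0.00614, against 0.162 in the moderated fit) and Gnai1 was not (0.158, against 0.0489). The 1 lower call was Gna13, at -0.79 ± 0.27 (log2, SE) at an adjusted p of 0.0324 (limma), in 4 of 4 libraries, and at 0.0981 with ordinary variance. With Gnas and Gm20721 summed, an alternative chosen after seeing the data, the calls became 1 higher, against 0.729% of all entries, and 8 lower, against 85.4%. Gnao1 was the higher one. The differences of Gnaq, Gnai2 and Gnal were then -0.84, -1.45 and -1.90 (log2, SE 0.83 each), at adjusted p of 0.328, 0.0901 and 0.0261 (limma). The sum was 7.37-fold higher in replicates 1 and 2 than in 3 and 4, and this scatter enters each difference. No fit with ordinary variance was run against the sum, so its 1 higher and 8 lower calls rest on the moderated fit alone. Gnaq lay below the sum in replicates 1 and 2 and above it in replicates 3 and 4. The order of Gnas among the G alpha genes thus differed between the 2 ways of counting.

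**Figure D2:**
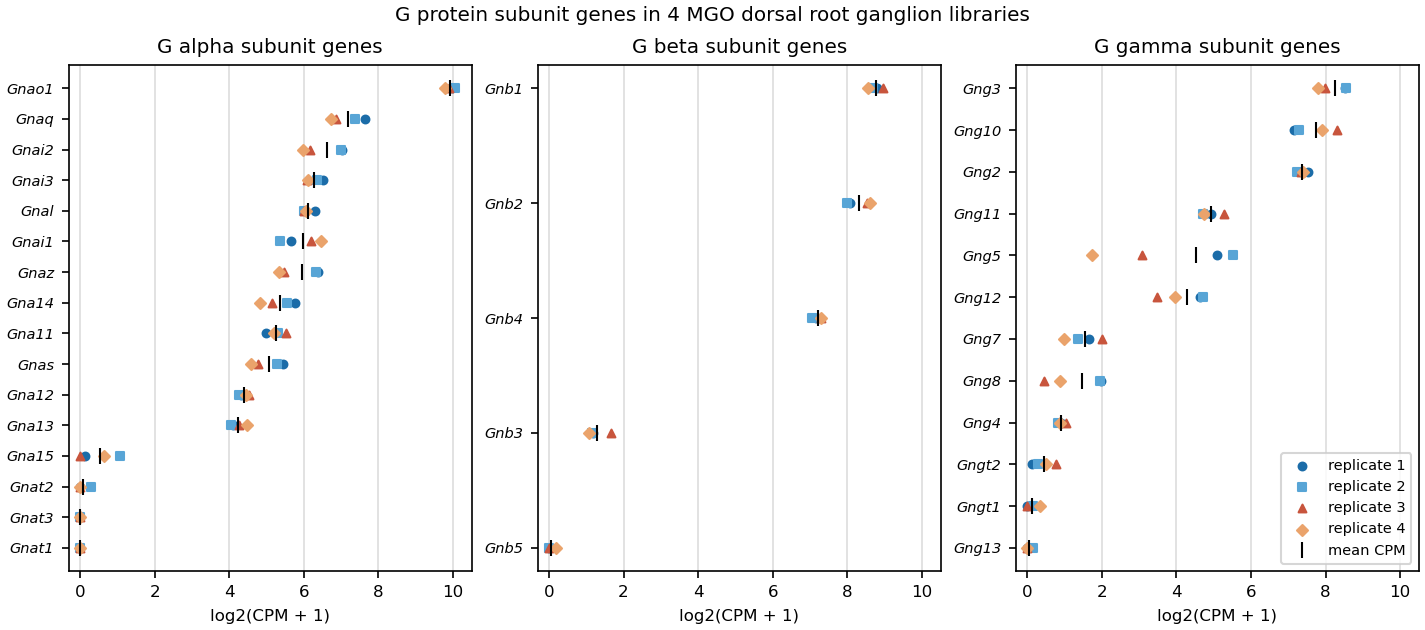
Level in log2(CPM + 1) of the 16 G alpha, 5 G beta and 12 G gamma genes, sorted by mean within each panel, with 1 marker per library and a bar at the mean CPM on the same scale. Gnao1 stands apart at the top of the G alpha panel, 3 G beta and 3 G gamma genes lead their panels, and Gng5 has the widest gap between replicates 1 and 2 and replicates 3 and 4.

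Beta and gamma subunits form the dimer that regulates potassium and calcium channels and some adenylyl cyclases. Gnb1 had 447, 413, 496 and 378 CPM in replicates 1 to 4, Gnb2 had 269.9, 252, 365 and 389 CPM and Gnb4 143, 131, 155 and 156 CPM. These 3 genes made up 99.8% of the G beta family. Gnb1 was above Gnb2 in 3 of 4 libraries, with the order turned in replicate 4. Gnb2 differed from Gnb1 by -0.46 ± 0.21 (log2, SE) at an adjusted p of 0.069 (limma) and was not called, whereas Gnb4 was lower than Gnb1, with a difference of -1.56 ± 0.18 (log2, SE) at an adjusted p of 9.58e-05 (limma; 0.000822 with ordinary variance) in 4 of 4 libraries. In all, 2 of 3 G beta genes tested were called lower than Gnb1, against 96.8% of all entries. Gnb3, the beta subunit of cone photoreceptors and taste cells, averaged 1.44 ± 0.479 CPM. Gnb5, the beta-like subunit that pairs with R7-class RGS proteins, was listed at 0 in replicates 1 to 3 and at 0.138 CPM, 1 read, in replicate 4.

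Among the G gamma genes, Gng3, a subunit known from neurons, had 367, 376, 252 and 222 CPM in replicates 1 to 4, Gng10 had 140.4, 156, 316 and 240.04 CPM and Gng2 183, 151, 161 and 166 CPM. Gng3 was the highest in replicates 1 and 2 and Gng10 in replicates 3 and 4, so their order split 2 libraries against 2. Gng10 differed from Gng3 by -0.55 ± 0.35 (log2, SE) at an adjusted p of 0.174 (limma) and was not called. Gng2 was lower than Gng3, with a difference of -0.84 ± 0.22 (log2, SE) at an adjusted p of 0.00829 (limma; 0.0255 with ordinary variance) in 4 of 4 libraries. Of the 7 G gamma genes tested, 6 were called lower than Gng3, against 94.5% of all entries. Gng3 overlaps Bscl2 on the opposite strand (mean 36.9 CPM), so a part of its reads is uncertain. Gng5 had 32.8, 44.9, 7.53 and 2.35 CPM and was 7.87-fold higher in replicates 1 and 2, the largest difference between the library pairs of any gene described here that averaged 10 CPM or more. Gng12 had 23.8, 25.2, 10.2 and 14.7 CPM, also higher in replicates 1 and 2 without overlap. Gng4, Gng7 and Gng8 averaged between 0.894 and 1.94 CPM. The cone and rod subunits Gngt2 and Gngt1 and the taste and bipolar cell subunit Gng13 averaged 0.363, 0.0971 and 0.0279 CPM. Gngt2 overlaps Abi3 on the opposite strand (mean 1.63 CPM), so its reads are uncertain. The photoreceptor markers Opn1mw and Prph2 were at 0 in every library. Taste cell markers summed to 2.86 and 8.96 CPM on average in replicates 1 and 2 and in replicates 3 and 4, with Tas1r2 and Tas1r3 at 0. Most of these sums was Plcb2, also a phospholipase C beta gene, with 2.01 and 8.28 CPM in the same order.

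Several of these genes lie beside a relative in the genome, and 9 pairs of the genes described here were less than 100000 bp apart. Gnai3 and Gnat2 are 5847 bp apart on chromosome 3, on opposite strands. Gna11 and Gna15 are 4498 bp apart on chromosome 10, on the same strand. In both pairs 1 gene was well above the floor in every library and the other at or near it, apart from the 1.11 CPM of Gna15 in replicate 2, and so were Gnai2 and Gnat1 (39106 bp, chromosome 9) and Gng11 and Gngt1 (6467 bp, chromosome 6). Gng11 had 29.3, 25.1, 37.5 and 25.9 CPM. Gnaq and Gna14, 48298 bp apart on chromosome 19, and Rgs4 and Rgs5, 45663 bp apart on chromosome 1, were both detected, at 3.64-fold and 11.5-fold higher levels of the first gene in CPM, in 4 of 4 libraries. The promoters of the first 2 pairs are shown because the neighbours differ in level while sharing a locus. Each runs 5′ to 3′ on the gene's strand from 250 bases before to 50 after the RefSeq start (GRCm38.p6), with every CG dinucleotide in capitals.
Gnai3, chr3:108146103-108146402, minus strand: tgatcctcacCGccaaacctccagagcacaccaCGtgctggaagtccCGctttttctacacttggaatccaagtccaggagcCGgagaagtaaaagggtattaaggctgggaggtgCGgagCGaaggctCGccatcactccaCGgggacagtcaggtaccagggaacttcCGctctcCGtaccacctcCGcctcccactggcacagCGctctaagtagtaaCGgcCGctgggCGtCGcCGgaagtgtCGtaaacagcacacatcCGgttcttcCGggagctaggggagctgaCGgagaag
Gnat2, chr3:108092816-108093115, plus strand: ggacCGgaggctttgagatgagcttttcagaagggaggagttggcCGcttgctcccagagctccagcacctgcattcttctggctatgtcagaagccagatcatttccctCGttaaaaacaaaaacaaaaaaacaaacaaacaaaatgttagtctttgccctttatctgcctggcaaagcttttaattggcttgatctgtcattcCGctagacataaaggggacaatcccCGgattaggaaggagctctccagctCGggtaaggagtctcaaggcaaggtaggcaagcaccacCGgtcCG
Gna11, chr10:81545113-81545412, minus strand: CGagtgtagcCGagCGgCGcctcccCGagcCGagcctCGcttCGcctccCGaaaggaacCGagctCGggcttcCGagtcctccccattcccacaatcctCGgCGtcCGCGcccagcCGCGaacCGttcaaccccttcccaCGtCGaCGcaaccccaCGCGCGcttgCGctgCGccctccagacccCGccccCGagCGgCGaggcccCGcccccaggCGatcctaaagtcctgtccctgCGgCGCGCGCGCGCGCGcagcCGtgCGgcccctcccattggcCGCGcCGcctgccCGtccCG
Gna15, chr10:81524176-81524475, minus strand: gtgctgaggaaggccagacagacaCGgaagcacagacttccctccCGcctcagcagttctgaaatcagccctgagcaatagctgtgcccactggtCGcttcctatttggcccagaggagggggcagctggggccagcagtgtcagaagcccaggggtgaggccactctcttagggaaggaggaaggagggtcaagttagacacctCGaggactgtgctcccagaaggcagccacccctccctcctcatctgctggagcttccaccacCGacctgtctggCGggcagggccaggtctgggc

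The Gnai3 promoter holds 21 CG dinucleotides and that of Gnat2 8, and the Gna11 promoter holds 48 and that of Gna15 6. Of all 32851 RefSeq promoter sequences of this length, 75.2% held fewer than the Gnai3 window, 51.35% fewer than that of Gnat2, 98.8% fewer than that of Gna11 and 43.6% fewer than that of Gna15. Promoter sequences were found for 65 of the 87 genes, and where a gene had several the one with the most CG was counted. The median was 25 for the 46 detected genes among them and 8 for the 19 others, and over all genes of the table with a sequence it was 22 for 9341 detected genes and 4 for 9535 others. The relation had exceptions in both directions: Gng3 and Gng2, both above 100 CPM in every library, had 2 and 5 CG, and Gng13, with no more than 1 read in any library, had 34. The motif TGACGTCA, the full cAMP response element, which reads the same on both strands, was in the window of 0 of the 65 genes and of 2.03% of all 27025 genes with a sequence. No match says only that these letters are not in this window.

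RGS proteins speed up GTP hydrolysis by G alpha subunits. R4-class genes held 75.96 ± 5.95% of the RGS CPM (SD over libraries, n = 4), R12-class genes 13.8 ± 6.49%, RZ-class genes 5.24 ± 0.918% and R7-class genes 4.82 ± 0.574%. Per kb the R12 share was 24.0%, the RZ share 2.71% and the R7 share 2.36%. Rgs4, a small R4 protein that acts on Gi/o and Gq subunits, had 342, 348, 399 and 437 CPM in replicates 1 to 4, the highest RGS gene in every library, and was higher in replicates 3 and 4. Against the median gene Rgs4 was higher by 4.72 ± 0.19 (log2, SE) at an adjusted p of 1.66e-05 (limma), in 4 of 4 libraries. All 16 other RGS genes tested were called lower than Rgs4, against 95.9% of all entries. Rgs3 had 93.5, 104, 85.5 and 89.3 CPM and was lower than Rgs4, with a difference of -2.02 ± 0.18 (log2, SE) at an adjusted p of 5.31e-05 (limma; 0.000999 with ordinary variance) in 4 of 4 libraries. Rgs2, an R4 protein with a preference for Gq, had 47.5, 53.5, 28.5 and 27.3 CPM and was higher in replicates 1 and 2.

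Rgs10, the smallest R12 protein and known from microglia and other immune cells as well as neurons, had 139, 134, 46.1 and 38.5 CPM in replicates 1 to 4. It was 3.23-fold higher in replicates 1 and 2 than in 3 and 4. The macrophage marker sum was also higher in replicates 1 and 2. So was every other marker sum given above, the pan-neuronal one included, except that of taste cells. The part of any cell type in the Rgs10 difference was not tested. Rgs10 was lower than Rgs4, with a difference of -2.30 ± 0.44 (log2, SE) at an adjusted p of 0.00235 (limma; 0.0288 with ordinary variance) in 4 of 4 libraries. Rgs12 had 6.41, 8.802, 11.1 and 10.1 CPM and Rgs14 4.14, 3.45, 6.097 and 3.88 CPM, so the R12 share rested on Rgs10. Rgs10 was above Rgs3 in replicates 1 and 2 and below it in replicates 3 and 4. Per kb of exonic length Rgs10 ranked next after Rgs4, at 52.3 CPM against 123 CPM, and Rgs2 and Rgs3 followed at 10.8 and 8.62 CPM.

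The R7-class proteins, which form complexes with the Gnb5 product, were represented by Rgs7, with 21.2, 22.8, 16.1 and 16.2 CPM in replicates 1 to 4, Rgs6, with 16.3, 12.5, 7.89 and 14.1 CPM, and Rgs11, with 2.27, 2.67, 1.79 and 1.11 CPM. Rgs11 overlaps Arhgdig on the opposite strand (mean 18.5 CPM), so its reads are uncertain. Rgs9, the photoreceptor and striatal member, averaged 1.69 ± 0.971 CPM (SD, n = 4). Rgs7bp, which anchors R7 complexes at the membrane, averaged 249.96 CPM over all, with 151 and 349 CPM on average in replicates 1 and 2 and in replicates 3 and 4. Beside these levels, the Gnb5 partner was at or below 1 read in each library. That value describes the Gnb5 entry, and whether reads of its transcripts were missed or counted elsewhere was not tested. In the RZ class, Rgs17, which acts on Gi/o subunits including Gz, had 24.95, 23.1, 39.99 and 39.2 CPM, higher in replicates 3 and 4. Rgs20 had 4.44, 5.904, 1.43 and 2.49 CPM and Rgs19 3.95, 5.46, 0.897 and 0.554 CPM, both higher in replicates 1 and 2. Rgs20 overlaps Atp6v1h on the opposite strand (mean 166.7 CPM), so its reads are uncertain. Rgs22, outside these classes, had 0.493, 0.223, 1.97 and 1.11 CPM. The other R4 genes lay between Rgs5, at 33.3 CPM on average, and Rgs13, listed at 0.

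**Figure D3:**
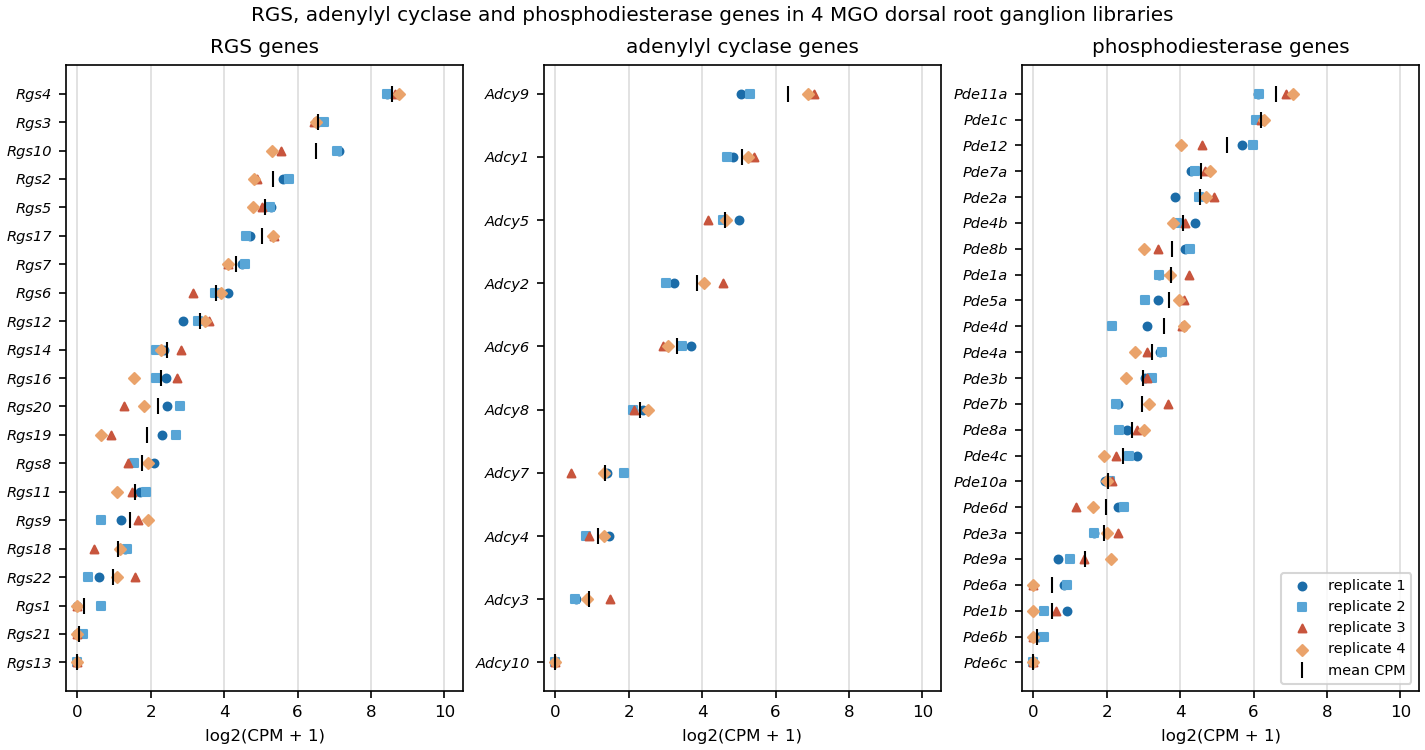
Level in log2(CPM + 1) of the 21 RGS, 10 adenylyl cyclase and 23 phosphodiesterase genes, sorted by mean within each panel, with 1 marker per library and a bar at the mean CPM on the same scale. Rgs4 leads the RGS panel in every library, Adcy9 and Rgs10 split into library pairs in opposite directions, and Pde11a and Pde1c lead the phosphodiesterases in all 4 libraries.

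Adenylyl cyclases differ in how calcium, calmodulin and G protein subunits control them. Adcy9, a widely expressed cyclase with low sensitivity to forskolin, had 32.5, 38.2, 132 and 118 CPM in replicates 1 to 4. It was 3.53-fold higher in replicates 3 and 4 than in replicates 1 and 2. Its share of the cyclase CPM was 27.1, 34.6, 58.3 and 55.95% in replicates 1 to 4. The calcium-inhibited cyclases held 35.96, 29.9, 10.4 and 14.9% and the calcium-stimulated ones 27.1, 25.9, 20.7 and 20.2%. The calcium-inhibited class was thus the larger of these classes in replicates 1 and 2, and above Adcy9 in replicate 1, and the smaller in replicates 3 and 4. Cyclases stimulated by beta-gamma dimers held 9.74 ± 0.723% (SD, n = 4). Per kb, the mean share was 20.9% for the calcium-inhibited, 13.8% for the beta-gamma-stimulated and 12.9% for the calcium-stimulated class.

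Adcy1, the calcium-stimulated cyclase known for its role in nociceptive plasticity, had 27.8, 24.7, 41.6 and 37.1 CPM in replicates 1 to 4, higher in replicates 3 and 4. Its class mates Adcy8 and Adcy3, the olfactory cyclase, had 4.24, 3.34, 3.41 and 4.71 CPM and 0.493, 0.446, 1.79 and 0.831 CPM. Adcy3 overlaps Cenpo on the opposite strand (mean 4.64 CPM), so its reads are uncertain. Adcy9 was higher than Adcy1 by 1.03 ± 0.31 (log2, SE) at an adjusted p of 0.0266 (limma) in 4 of 4 libraries, but 0.0879 with ordinary variance, and the call was lost without replicate 3 (adjusted p = 0.0904) and without replicate 4 (adjusted p = 0.097). This was the 1 higher call among 7 cyclases tested, against 20.3% of all entries, and 5 were called lower, against 56.8%. Adcy5, a calcium-inhibited cyclase, had 31.3, 22.95, 16.9 and 23.9 CPM and differed from Adcy1 by -0.45 ± 0.28 (log2, SE) at an adjusted p of 0.191 (limma), which was not called. The difference was 0.030 in replicates 1 and 2 alone and 0.25 per kb, so the sign of this difference was not the same under every setting. Per kb of exonic length, Adcy5 averaged 3.31 CPM, Adcy2 3.202 CPM and Adcy1 2.62 CPM, which puts Adcy1 behind both.

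Adcy6, the other calcium-inhibited cyclase, had 11.9, 10.03, 6.63 and 7.48 CPM in replicates 1 to 4, higher in replicates 1 and 2. Of the cyclases stimulated by beta-gamma dimers, Adcy2 had 8.38, 7.13, 22.8 and 15.6 CPM and was 2.48-fold higher in replicates 3 and 4. Adcy7 had 1.68, 2.67, 0.359 and 1.52 CPM and Adcy4 1.78, 0.7799, 0.897 and 1.52 CPM, both near the detection limit. Adcy4 was lower than the median gene, with a difference of -2.71 ± 0.19 (log2, SE) at an adjusted p of 7.08e-05 (limma), in 4 of 4 libraries, and Adcy9 higher by 2.22 ± 0.45 (log2, SE) at an adjusted p of 0.00459 (limma), in 4 of 4 libraries.

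Phosphodiesterases that hydrolyse both cyclic nucleotides held 60.1 ± 7.403% of the phosphodiesterase CPM (SD over libraries, n = 4), cAMP-specific ones 24.3 ± 1.66% and cGMP-specific ones 3.84 ± 0.941%. The remaining 11.7 ± 7.52% came from Pde6d, a carrier of prenylated proteins, and Pde12, a mitochondrial RNA phosphodiesterase characterised in human cells, which share the name but do not hydrolyse cyclic nucleotides. Pde11a, a dual-specificity enzyme, had 67.96, 70.1, 117 and 135 CPM in replicates 1 to 4, higher in replicates 3 and 4. Pde1c, a dual-specificity enzyme activated by calcium and calmodulin, had 73.9, 66.3, 72.98 and 76.8 CPM, with overlapping library pairs. Per kb of exonic length the order was different, with Pde12 at 4.88 CPM above Pde1c at 3.61 CPM. Against the median gene Pde11a was higher by 2.71 ± 0.28 (log2, SE) at an adjusted p of 0.000254 (limma), in 4 of 4 libraries. The Pde2a entry used had 13.5, 21.8, 29.05 and 25.2 CPM. The other entry of this symbol, annotated as Gm45837 in GENCODE M21 and sharing 95.6% of its exonic bases with Pde2a, had 15.1, 4.89, 0 and 0.00655 CPM. Both summed gave 28.6, 26.7, 29.05 and 25.2 CPM, so the lower Pde2a values of replicates 1 and 2 were not seen in the sum.

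**Figure D4:**
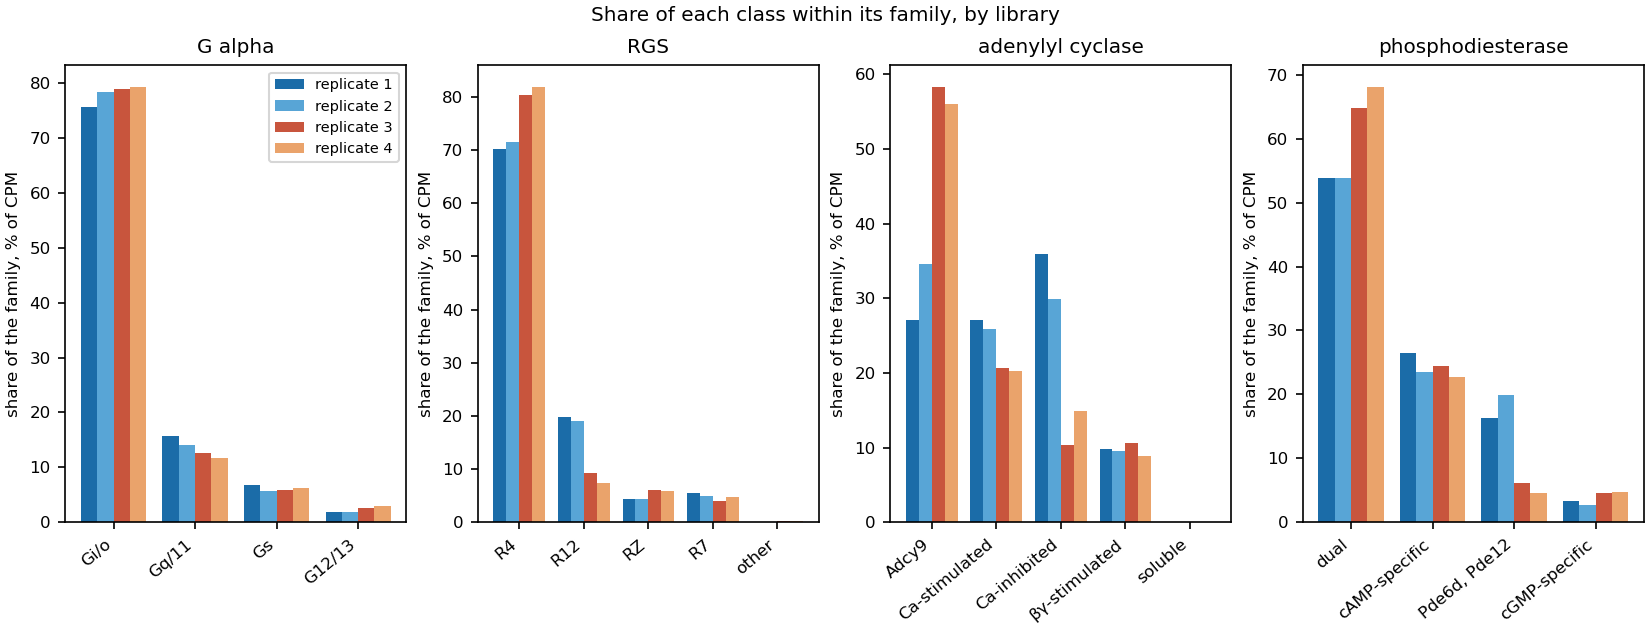
Share of each functional class in the CPM of its family, in percent, with 1 bar per library, for G alpha, RGS, adenylyl cyclase and phosphodiesterase genes. Gnas is taken as listed, without Gm20721. The Gi/o and R4 classes lead in all 4 libraries, whereas Adcy9 takes 27.1% and 34.6% of the cyclase CPM in replicates 1 and 2 and 58.3% and 56.0% in replicates 3 and 4.

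Among the cAMP-specific enzymes, Pde7a had 18.6, 20.3, 24.6 and 26.9 CPM in replicates 1 to 4, Pde4b 20.3, 14.1, 16.5 and 12.9 CPM and Pde8b 16.6, 18.2, 9.504 and 7.06 CPM. Pde7a was the highest of them in 3 of the libraries and in the mean, with Pde4b above it in replicate 1, and Pde8b was 2.097-fold higher in replicates 1 and 2. Pde4d, a target of rolipram, had 7.59, 3.45, 15.6 and 16.3 CPM and was 2.89-fold higher in replicates 3 and 4. The cGMP-specific Pde5a, the target of sildenafil, had 9.57, 7.24, 16.1 and 14.7 CPM, also higher in replicates 3 and 4 without overlap. Pde9a had 0.592, 1.003, 1.61 and 3.32 CPM and the rod subunit Pde6a 0.789, 0.891, 0 and 0 CPM, and the other photoreceptor subunits were lower still, with Pde6b at no more than 2 reads and Pde6c at 0. Pde12 had 50.01, 62.5, 22.95 and 15.2 CPM, 2.95-fold higher in replicates 1 and 2, and overlaps Arf4 on the opposite strand (mean 117.0 CPM), so its reads are uncertain. Pde6d had 3.95, 4.57, 1.26 and 2.08 CPM.

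Of 18 phosphodiesterases tested against Pde4d, 3 were called higher, against 36.9% of all entries, and 4 lower, against 20.9%. Pde11a was higher than Pde4d by 3.20 ± 0.59 (log2, SE) at an adjusted p of 1.19e-06 (limma; 0.0271 with ordinary variance), and Pde1c by 2.84 ± 0.59 (log2, SE) at an adjusted p of 1.72e-05 (limma; 0.0408 with ordinary variance), both in 4 of 4 libraries. Pde12 was higher than Pde4d by 1.71 ± 0.60 (log2, SE) at an adjusted p of 0.0102 (limma), in 3 of 4 libraries, but 0.235 with ordinary variance. Pde4d itself differed between the library pairs, and replicates 1 and 2 alone gave 7 higher and 0 lower calls among 17 tested, against 56.1% and 11.7% of all entries. Replicates 3 and 4 alone gave 4 higher and 10 lower calls among 18, against 38.0% and 47.9%. Over the phosphodiesterases the order of neighbouring ranks was the same in 4 of 4 libraries for 1 of 18 neighbouring pairs, against 5 of 11 among G alpha genes and 19 of 62 over all 6 families. With 4 libraries an exact sign-flip test of such a pair cannot reach a p under 0.05.

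The library pairs were set side by side for the 43 genes averaging 10 CPM or more. At least 2-fold without overlap, 4 of them (9.30%) were higher in replicates 1 and 2, namely Gng5, Rgs10, Pde12 and Pde8b, against 23.7% of all entries at this level. Another 3 (6.98%), Adcy9, Pde4d and Adcy2, were higher in replicates 3 and 4, against 9.56%. After rescaling without mitochondrially encoded genes and ribosomal RNA, which moved the pairs by 0.185 (log2) relative to each other, 3 genes were higher in replicates 1 and 2 (all entries 19.1%). In replicates 3 and 4 there were then 7 (all entries 13.6%), with Gnai1, Gng10, Pde11a and Pde5a added to the 3 above. Among the 68 genes averaging 1 CPM or more, 27 did not overlap with replicates 1 and 2 above (all entries 45.8%) and 23 with replicates 3 and 4 above (all entries 32.6%). The median difference, replicates 1 and 2 minus 3 and 4, was 0.04 (log2) for these genes and 0.16 for all entries.

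**Figure D5:**
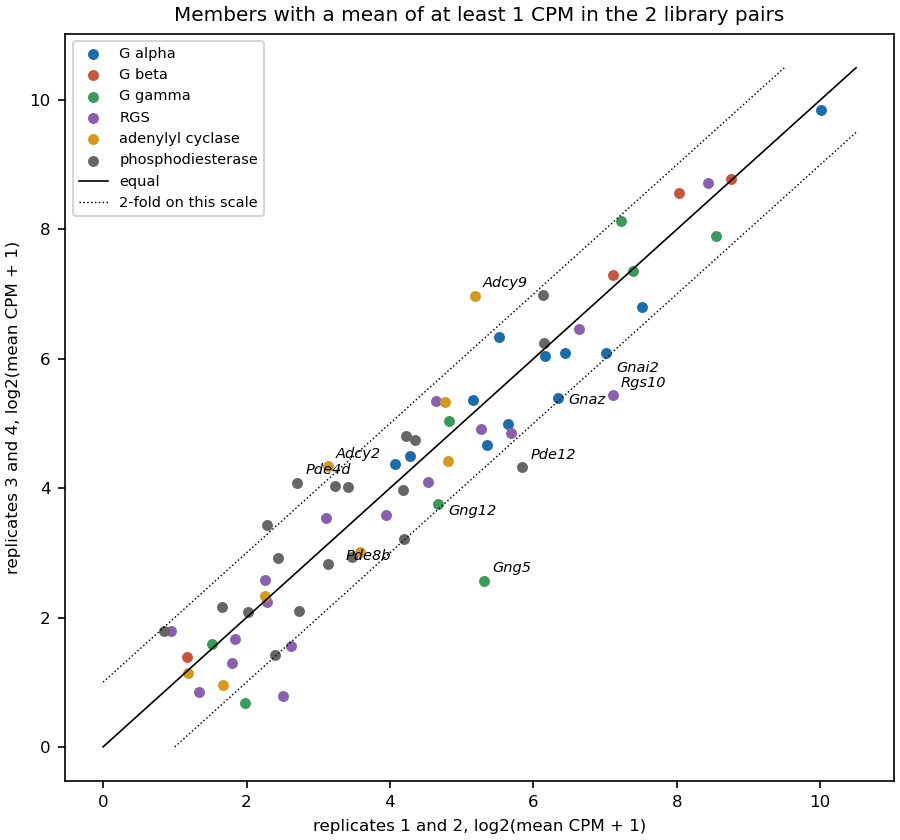
Each point is 1 of the 68 genes averaging 1 CPM or more, with log2(mean CPM + 1) of replicates 1 and 2 on the horizontal and of replicates 3 and 4 on the vertical axis. Most points lie between the dotted 2-fold lines, and the named genes are the 10 with the largest difference without overlap among those with a mean of at least 10 CPM, with Gng5 farthest below the line of equal levels and Adcy9 farthest above it among the named genes.

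The genes that act beside these families were read from 8 lists with 44 genes, of which 39 were tested against the median gene: 19 were called higher, 9 lower and 11 not called. Of all entries tested, 39.7% were called higher and 39.7% lower, and these shares belong beside each count by list below. All 6 subunit genes of protein kinase A, the main target of cAMP, were called higher, between Prkar1a at 1826 CPM on average and Prkar1b at 109.7 CPM. Their median difference from the median gene was 3.64 (log2). Among these 6, the catalytic subunit gene Prkaca differed most between the library pairs, with 1113 and 92.7 CPM on average in replicates 1 and 2 and in replicates 3 and 4. Rapgef4 and Rapgef3, which encode EPAC proteins, the cAMP-activated exchange factors for Rap, averaged 19.001 and 18.7 CPM and were not called. Of the receptor kinases and arrestins, 3 of 7 were called higher and 1 lower, between Grk2, listed as Adrbk1, at 260.5 CPM and Grk6 at 7.44 CPM. The median difference was 0.31 (log2) for the EPAC genes and 0.40 for the kinases and arrestins.

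Of the phospholipase C beta genes, the targets of Gq/11, 3 were called higher and 1 lower, with Plcb3 highest at 110.2 CPM and Plcb2 lowest at 5.15 CPM. The guanine nucleotide exchange factor genes through which G12/13 act had 2 of 3 called higher, with Arhgef12 at 159 CPM and Arhgef1 lowest at 13.2 CPM. Chaperones and modulators of G proteins had 3 of 7 tested called higher and 1 lower, between Rgs7bp, given above, and Rgs9bp at 0.313 CPM. In the CREB family, transcription factors and coactivators downstream of protein kinase A, 1 of 6 was called higher and 3 lower, with Creb1 at 76.2 CPM and Crtc2 at 1.09 CPM. Of the guanylyl cyclases, which make cGMP, 1 of 4 tested was called higher and 3 lower, between Npr2 at 24.6 CPM and, among the untested, Gucy2f at 0.0727 CPM. The median differences of these lists from the median gene, in the same order and over the genes tested, were 1.67, 1.56, 0.18, -0.28 and -1.41 (log2), against -0.02 over all entries.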

How the data were processed

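RNA libraries of 4 MGO dorsal root ganglion samples, a single group, were analysed from 1 deposited table. Per the labels' protocols, TRIzol RNA was depleted of ribosomal RNA with RiboCop and sequenced as Lexogen QuantSeq 3′ libraries. The tools FastQC 0.11.5, Bowtie2 2.2.9, TopHat2 2.1.1 and Cufflinks 2.2.1, and mm10 and GRCm38.p4 as builds, are named in the submitters' processing notes, without their roles. The unit per the file headers is TPM, yet the deposited values had the form of CPM. Each library summed to 1000000, and at least 98.277% of values above 0 were, to within 0.05, whole multiples of 1 step. The step was the library's most common value above 0, and some values were smaller. The authors' deposited numbers were thus read as CPM, with the tests planned for the header's unit kept. No count model was run, since a small share of values came to fractional reads.

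The replicate number in a column's name tied it to its sample. Positions, gene types and exonic lengths came from GENCODE M21 (GRCm38), where 48052 entries (99.2%) matched, and promoters from RefSeq (GRCm38.p6). The members, classes and lists were chosen with earlier results of these data known. Values in every library are given for the 3 members of highest mean in each class, the 6 comparison genes and the 10 members with a mean of at least 10 CPM and the largest difference between non-overlapping library pairs. Other members are given by range or mean, and those singled out beyond this were chosen after their values were seen. The sum of 1 marker list is not reported here.

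The fits used limma 3.58.1 in R 4.3.3, intercept only and two-sided, on log2(CPM + 1) minus the library's median gene or minus a comparison gene (Gnas, Gnb1, Gng3, Rgs4, Adcy1 or Pde4d), for all genes averaging 1 CPM or more. Differences on this scale understate those of low genes. Adjustment was by Benjamini-Hochberg over the whole table, and calls were made under 0.05. The main fit takes the 4 libraries for independent samples. Alternatives were a pseudocount of 0.1, a filter at 10 CPM, no filter, exonic length, ordinary variance, each replicate left out, each library pair alone, and Gnas summed with Gm20721. Python 3.11.15, numpy 2.4.6, pandas 2.3.3, scipy 1.17.1 and matplotlib 3.10.9 were used for the rest.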

Additional observations from a re-analysis of the deposited data

Results flagged for a closer look

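Gnb3, the G beta gene of cone photoreceptors and taste cells, stood out for 1 library: replicate 3 had 2.15 CPM, against 1.28, 1.23 and 1.11 CPM in replicates 1, 2 and 4. These values equal 13, 11, 12 and 8 reads in replicates 1 to 4. Replicate 3 was thus not the highest in reads, and its library had the fewest implied reads. The gap to the nearest library was 0.833 of the whole range, past Dixon's critical value for 4 samples. The same was asked of 85 results and met by this 1, and chance gives about 1 in 20.

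Gm20721, which lies over exons of Gnas on the opposite strand, is outside the gene families and averaged 358 CPM, well above the floor of 3 reads in every library. The second entry listed as Pde2a averaged 5.002 CPM, which came from replicates 1 and 2.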

How the results depend on the processing

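Shares in brackets are of all entries tested in that setting. Against the median gene, 29 to 31 genes were higher (37.2 to 37.7%) and 23 to 25 lower (37.0 to 37.8%) without any 1 library, of 68 to 70 tested. With a filter at a mean of 10 CPM, which leaves fewer genes and a higher median, there were 17 higher (35.0%) and 13 lower (33.8%) calls among 43, and Gna12 (-0.82) and Gna13 (-0.98) turned below the median. Per kb Gna13 was at -0.13. Against Gnas summed with Gm20721, 1 gene was higher (0.729%) and 8 lower (85.4%) of 11, with Gnaq at -0.84, Gnai2 at -1.45 and Gnal at -1.90. These calls come from the moderated fit only. Against Gnas as listed, the lower calls ran from 0 to 2 without 1 library (53.7 to 57.5%). They were 2 of 11 in replicates 1 and 2 alone (66.3%) and 0 of 11 in replicates 3 and 4 alone (57.6%). With no filter they were 4 of 13 (74.0%), per kb 0 of 11 (33.5%) and with ordinary variance 0 of 11 (52.5%). Against Gnb1, lower calls were 4 of 4 with no filter (98.1%) and 1 of 2 with the filter at 10 CPM (94.3%), against Gng3 10 of 11 with no filter (96.7%), and against Rgs4 7 of 7 with the filter at 10 CPM (92.8%). Gng10 was 0.22 above Gng3 in replicates 3 and 4 alone. Against Adcy1, higher calls ran from 0 to 1 without 1 library (16.7 to 20.2%) and were 0 of 7 with ordinary variance (17.6%). Lower calls against Adcy1 were 1 of 3 with the filter at 10 CPM (23.0%). Adcy5 was at 0.030 in replicates 1 and 2 alone and 0.25 per kb. Against Pde4d, higher calls were 7 of 17 in replicates 1 and 2 alone (56.1%) and 6 of 18 per kb (58.1%). Lower calls against Pde4d ran from 1 to 5 without 1 library (10.4 to 28.1%). They were 0 of 17 in replicates 1 and 2 alone (11.7%) and 10 of 18 in replicates 3 and 4 alone (47.9%). With no filter they were 7 of 21 (51.4%) and with the filter at 10 CPM 0 of 9 (0.0%). Per kb they were 0 of 18 (0.866%) and with ordinary variance 1 of 18 (5.19%). Changes of a filter change which genes can be counted, and the cause of the other changes was not tested.

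Over the genes tested singly, 290 alternatives kept the direction and the side of the threshold, 19 lost the call, 7 gained it and 9 turned the direction. Per kb the class shares were 73.8% for Gi/o, 18.7% for Gq/11, 3.78% for Gs, 3.72% for G12/13, 24.0% for R12, 2.71% for RZ, 2.36% for R7, 12.9% for calcium-stimulated and 13.8% for beta-gamma-stimulated cyclases. The G alpha shares take Gnas as listed, and shares with Gm20721 added were not computed. Rescaled without mitochondrially encoded genes and ribosomal RNA, 7 genes were at least 2-fold higher in replicates 3 and 4. No paired analysis was possible because all libraries belong to 1 group. Replicate 3 had the fewest implied reads, 5576834, and genes near 0.538 CPM, its floor of 3 reads, cannot be ranked.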

Other observations

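Exonic length moved with the direction of the library pairs. Among the 68 genes averaging 1 CPM or more, the median exonic length was 4239 bp for the 27 higher in replicates 1 and 2 and 6149 bp for the 23 higher in replicates 3 and 4. Over all entries the same medians were 3711 bp for 6780 entries and 5410 bp for 4816 entries. Across genes, which are not independent replicates and here share 4 libraries, Spearman's rho between exonic length and the difference of replicates 1 and 2 minus 3 and 4 was -0.22 over the 68 genes and -0.25 over 14777 entries. The part of length in the values of any single gene was not tested.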
